A study of Mus musculus with 5 samples.

Results

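Mouse embryonic stem cells that received a hairpin against Wtx were compared with cells that received a hairpin against GFP. The comparison took 3 of the 5 libraries of the series, 2 labelled shWtx and 1 labelled shGFP, and the other 2 carried hairpins against Trim28. A row was kept where its mean raw value over the 5 libraries was at least 20, which left 6079 of 28642 gene rows and 682 of 1221 repeat rows. The means on either side of that limit were 20.008 and 19.998 for genes, and 20.348 and 19.967 for repeats.

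The cells were ES-D3, an established mouse embryonic stem cell line, grown on irradiated feeder cells with leukemia inhibitory factor. Each culture of all groups was infected with a lentivirus carrying its hairpin and was selected with puromycin, and feeder cells were removed by a short replating before RNA was taken. The libraries labelled shWtx 1 and shWtx 2 carried hairpins 2460 and 2461. The control was the 1 library shGFP, so its own spread was not measured. The libraries of shTrim28 differ from it by hairpins against the corepressor Trim28, and they lent their spread to the tests. RNA was counted by Helicos single-molecule sequencing, which reads molecules without amplifying them. No label states separate cultures for the libraries of a group beyond their hairpins, so p-values rest on how far 2 hairpins differ, which may be technical.

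Wtx, now called Amer1 and listed in the gene table as Fam123b, encodes a membrane-associated protein that is deleted or mutated in a share of Wilms tumors of the kidney. It binds beta-catenin, Axin and Apc and takes part in the complex that marks beta-catenin for degradation, which keeps Wnt signalling low. Work in human cells has also linked it to p53, to the Keap1 and Nrf2 system and to the transcription factor WT1. In mouse embryonic stem cells, Wnt signalling helps to hold the pluripotent state.

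The hairpin targets are shown because both Wtx hairpins cover 1 site, so their agreement does not come from separate sites. Capitals mark the 20 bases that the 2 targets have in common, out of 21 in each, and the lower-case base is the one that differs.
shWtx 1 (hairpin 2460): gCCAGACATGCAAGAAGCAAA
shWtx 2 (hairpin 2461): CCAGACATGCAAGAAGCAAAt
In GRCm38 with GENCODE M21 annotation, the first matched chrX:95426292-95426312 and the second chrX:95426291-95426311, on the minus strand. Both lie in coding sequence in exon 2 of 2 of Amer1.

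The gene table held 763130 and 377794 estimated counts in the libraries labelled shWtx and 586408 in shGFP, and the range over all 5 libraries was 280614 to 1901563. Levels below are CPM, counts relative to library sizes that were set by size factors of the gene table. Chemoreceptor genes (receptors of smell, pheromones and taste), which stem cells are not known to use, served as a measure of reads that fall on transcripts regardless of use. Over the 671 of them with fewer than 20 bases of sequence repeated in more than 10 other genes, the level per kilobase of transcript was 1.5 and 1.34 CPM in the libraries labelled shWtx, 0.76 and 0.47 in shTrim28 and 0.151 in shGFP. Stem cell markers were present in both groups, with Pou5f1 (Oct4) at 554 and 514 CPM in the libraries labelled shWtx and 773 in shGFP. In RNA of whole cultures, fewer cells of a type and less RNA per cell cannot be told apart.

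Fam123b was not lower in the libraries labelled shWtx. It was counted 19 and 6 times there and 8 times in shGFP, which gave 27.3 CPM (95% exact Poisson interval 16.8 to 43.5) and 16.9 (6.14 to 36.4) against 13.8 (5.59 to 25.5) in shGFP. All intervals of this kind cover counting error only. The pooled ratio of the libraries labelled shWtx to shGFP was 1.86 (95% counting interval 0.812 to 4.76). The shTrim28 libraries stood at 18.2 and 26.7 CPM, and the groups overlapped. With a mean raw value of 18.58 the gene missed the row filter, and over a wider set of 11421 rows its log2 fold change was 0.85 (SE 0.63, edgeR adjusted p = 0.385). Per kilobase it stood at 3.21 and 1.99 CPM in the libraries labelled shWtx and 1.62 in shGFP, and the chemoreceptor level over its transcript length came to 12.7 and 11.4 CPM in the libraries labelled shWtx and 1.28 in shGFP. Less that level, 14.5 and 5.54 CPM remained in the libraries labelled shWtx and 12.5 in shGFP. Taken over all chemoreceptor genes, the level came to 20.99 and 17.08 CPM in the libraries labelled shWtx and 1.351 in shGFP. With that wider set, less remained in both libraries labelled shWtx than in shGFP. What remained thus depends on which chemoreceptor genes are taken, a choice made after seeing the data. The lower bound of the counted ratio was 0.812, and no interval was made after the subtraction. A knockdown is thus neither shown nor excluded at this depth, and the libraries are called by their label.

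**Figure D1:**
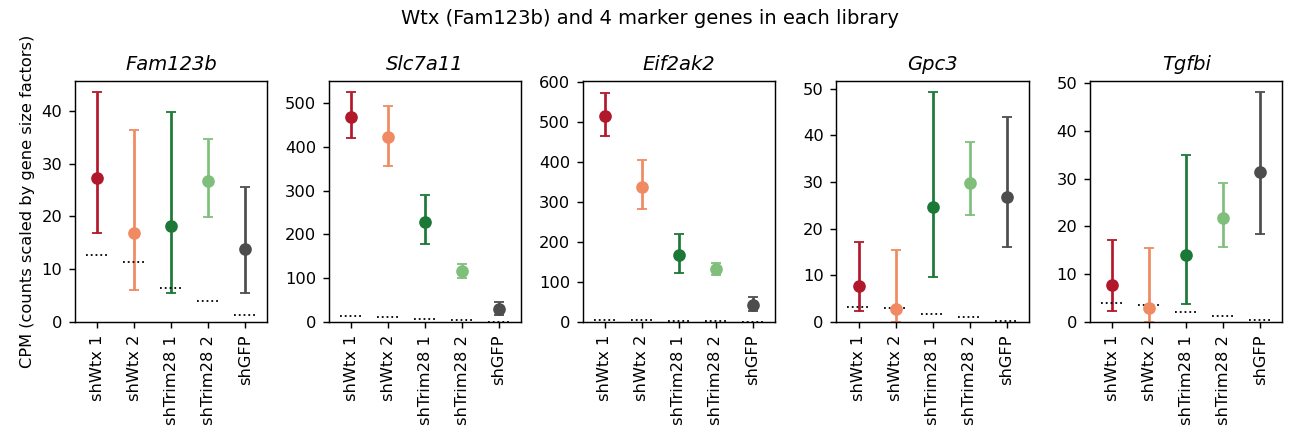
Level of Fam123b (Wtx), Slc7a11, Eif2ak2, Gpc3 and Tgfbi in each library, in CPM on a linear axis, with points for libraries, bars for 95% exact Poisson intervals and dotted lines for the chemoreceptor level over a transcript of that length. Fam123b overlaps between groups, Slc7a11 and Eif2ak2 stand highest in both libraries labelled shWtx, and Gpc3 and Tgfbi stand lowest there.

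Slc7a11, the cystine and glutamate exchanger, is a marker gene of the comparison and rose. It stood at 469 and 422 CPM in the libraries labelled shWtx, 228 and 116 in shTrim28 and 29.6 in shGFP, so the groups did not overlap. The log2 fold change against shGFP was 3.93 (SE 0.45, edgeR adjusted p = 0.00015), and against shTrim28 it was 1.5 (adjusted p = 0.00433). Eif2ak2 (PKR), the kinase that senses double-stranded RNA, stood at 517 and 339 CPM in the libraries labelled shWtx, 168 and 132 in shTrim28 and 42.1 in shGFP (log2 fold change 3.36, SE 0.37, edgeR adjusted p = 0.00011). Its difference from shTrim28 was 1.58 (edgeR adjusted p = 0.00191). Both genes passed without either library labelled shWtx, with adjusted p from 0.00222 to 0.0125. The transcripts of Slc7a11 and Eif2ak2 hold 276 and 158 bases of sequence that recurs in more than 10 other genes; the part of such sequence in these rises was not tested.

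The matrix genes Gpc3 and Tgfbi missed the row filter, with mean raw values of 18.13 and 14.82, and fell over the wider set of rows, where edgeR called 1334 of 11421 higher (11.7%) and 241 lower (2.11%). Gpc3 encodes glypican 3, a heparan sulfate proteoglycan of the cell surface. It stood at 7.82 and 2.9 CPM in the libraries labelled shWtx, 24.6 and 29.8 in shTrim28 and 26.7 in shGFP (log2 fold change −2.24, SE 0.67, edgeR adjusted p = 0.0326). Tgfbi, a matrix protein induced by TGF-beta, stood at 7.82 and 2.9 CPM in the libraries labelled shWtx, 14.1 and 21.7 in shTrim28 and 31.4 in shGFP (log2 fold change −2.40, SE 0.69, edgeR adjusted p = 0.0273). Against shTrim28 the differences were −2.28 for Gpc3 (adjusted p = 0.0102) and −1.76 for Tgfbi (adjusted p = 0.0674). The levels of both genes rest on 5 counts and 1 count in the libraries labelled shWtx.

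Over all genes, more rose than fell. In the libraries labelled shWtx 671 of 6079 rows were higher than in shGFP (11.0%) and 191 were lower (3.14%), by edgeR's quasi-likelihood test at an adjusted p under 0.05, with a median log2 fold change of −0.03. Of rows that carry a UCSC identifier and no symbol, 186 of 392 were higher and 4 were lower. Leaving out a library labelled shWtx reduced the calls: without shWtx 1 there were 310 higher and 7 lower, and without shWtx 2 there were 467 and 19. Some of the 118 named genes in the test had no call in the main fit, and many that had a call lost it in those fits. No named gene with a call changed direction there. The log2 fold change of Id2, which had no call, went from 0.39 to −0.21 without shWtx 1. DESeq2 called 446 higher (7.34%) and 70 lower (1.15%).

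Called genes differed in their transcripts. Sequence was counted as repeated where a stretch of 24 bases, on either strand, occurred in more than 10 other genes of GENCODE M21. Among genes with none of it 1.49% were higher and 5.49% lower, and among those with at least 300 bases 30.3% were higher and 4.92% lower. At least 100 such bases were present in 201 of 478 higher genes (42.1%), 20 of 186 lower genes (10.8%) and 998 of all 5633 with a transcript (17.7%). Length showed a gradient as well: under 1000 bases 1.51% were higher and 17.4% lower, and from 8000 bases on 21.7% were higher and 0% lower. The median length was 3930 bases for higher genes, 1150 for lower genes and 2948 for all. With the chemoreceptor level subtracted in proportion to length, 439 of 5633 genes were higher (7.79%) and 85 lower (1.51%), and with transcripts of at least 100 repeated bases left out, 301 of 4635 were higher (6.49%) and 229 lower (4.94%). With both steps 289 were higher (6.24%) and 81 lower (1.75%).

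**Figure D2:**
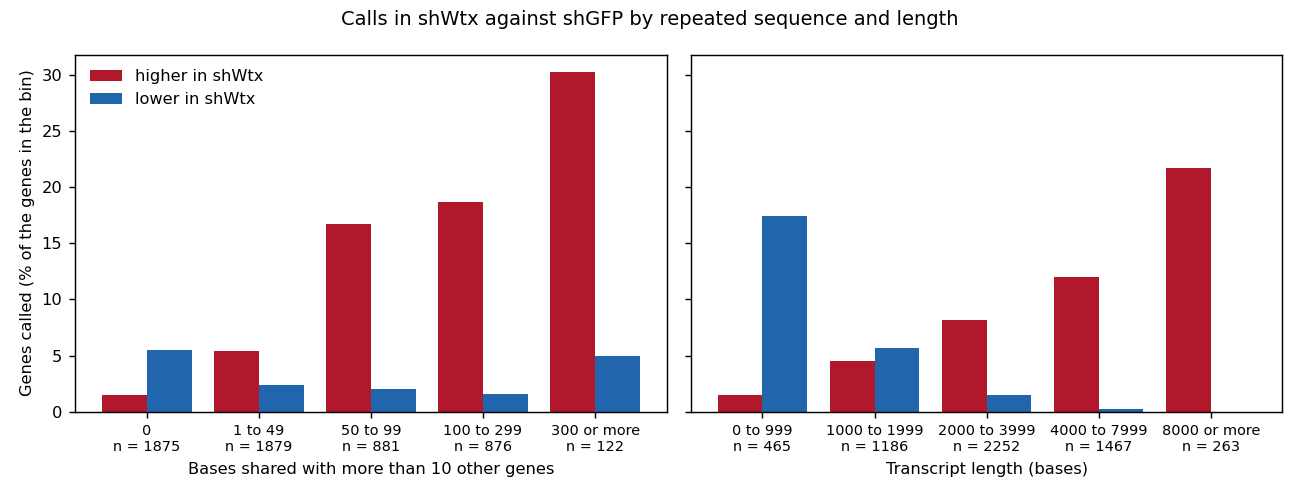
Percentage of genes called higher (red) or lower (blue) in the libraries labelled shWtx against shGFP, by bases of repeated sequence in the transcript (left) and by transcript length in bases (right), with the number of genes under each pair of bars. The share called higher climbs from 1.49% to 30.3% with repeated sequence, and the share called lower drops from 17.4% to 0% with length.

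The 10 genes with the largest rise had few or no counts in shGFP. The row filter, a mean over all 5 libraries, let rows near 0 in shGFP pass through the other libraries. A ranking by fold change also favours such rows, so their low control counts are no separate result. Mrgpre, an orphan G protein-coupled receptor of sensory neurons, stood at 740 and 680 CPM in the libraries labelled shWtx, 60.3 and 26.6 in shTrim28 and 8.78 in shGFP (log2 fold change 6.43, SE 0.52, edgeR adjusted p = 1.44e-05). It was also higher than in shTrim28 by 4.35 (edgeR adjusted p = 0.000105), the widest such gap of these 10 genes. Ccdc82, a coiled-coil protein, stood at 1199 and 817 CPM in the libraries labelled shWtx, 216 and 267 in shTrim28 and 13.3 in shGFP, and 1139 bases of its transcript are repeated in other genes. Aspa, which splits N-acetylaspartate, had no counts in shGFP and stood at 57.4 and 47.1 CPM in the libraries labelled shWtx, at least 11.1-fold higher against a floor of 3 counts in the control library.

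Pot1b, a protein of telomere ends, stood at 493.5 and 348 CPM in the libraries labelled shWtx and 6.54 in shGFP (log2 fold change 6.0). Cntn1 (contactin 1), an adhesion molecule of axons, stood at 700.3 and 509 CPM in the libraries labelled shWtx and 11.3 in shGFP (5.73). The 5 others had 1 or 2 control counts, and their ratios are loose. They were the lipase Lipi at 86.7-fold (95% counting interval 15.3 to 3449), the vomeronasal receptor V1rd6 at 75.4-fold (13.3 to 3003), the olfactory pseudogene Olfr1372-ps1 at 75.1-fold (20.6 to 624), 2310038E17Rik at 71.3-fold (19.5 to 592) and 5031410I06Rik at 58.8-fold (10.3 to 2346).

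The 5 rises with the lowest p were of abundant rows with repeated sequence. Fgd4, a guanine nucleotide exchange factor for Cdc42, stood at 10301 and 8723 CPM in the libraries labelled shWtx, 4077 and 3290 in shTrim28 and 241 in shGFP (log2 fold change 5.30, SE 0.34, edgeR adjusted p = 1e-05). Acad9, a mitochondrial acyl-CoA dehydrogenase, stood at 5477 and 4297 CPM in the libraries labelled shWtx and 179 in shGFP (4.77). Samsn1, an adaptor of lymphocytes, stood at 2911 and 2322 CPM in the libraries labelled shWtx and 105 in shGFP (4.64). Cyb5r4, a cytochrome b5 reductase (4.46), and Hsd3b2, a steroid dehydrogenase (5.42), were the other two. The 5 transcripts held from 368 to 1323 bases repeated in more than 10 other genes.

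Of the genes that fell, the 10 with the largest change were mostly of low abundance. Mgp, the matrix Gla protein that restrains calcification, stood at 12.5 and 5.8 CPM in the libraries labelled shWtx, 38.6 and 37.8 in shTrim28 and 54.6 in shGFP (log2 fold change −2.38, SE 0.49, edgeR adjusted p = 0.00736). Gas1, a membrane protein that binds hedgehog ligands, stood at 20.3 and 11.6 CPM in the libraries labelled shWtx, 109 and 193 in shTrim28 and 74.5 in shGFP (−2.12, adjusted p = 0.0129), and its difference from shTrim28 was −3.23. The chemokine Ccl2 (−2.08), the matrix metalloproteinase Mmp3 (−2.16) and the mitotic cyclin Ccnb2 (−1.96) fell as well. The others were Chmp2a of the ESCRT-III complex (−1.96), the RNA polymerase subunit Polr2h (−1.93), Gm5886 (−1.78), the glutathione transferase Gstp2 (−1.70) and the proteasome chaperone Psmg1 (−1.67). Levels of the 10 rest on 2 to 15 counts in each library labelled shWtx. By DESeq2 Gas1 alone of the 10 passed (adjusted p = 0.0252), and Mmp3 was given no adjusted p. With the length background subtracted, Chmp2a (edgeR adjusted p = 0.0792) and Gstp2 (edgeR adjusted p = 0.0691) did not pass. Without shWtx 1 or shWtx 2, Mgp had adjusted p of 0.0528 and 0.0642 and Gas1 of 0.0952 and 0.109.

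Of 20 tested members of the beta-catenin degradation complex and Wnt receptors, 1 was higher and 19 did not pass. Over all genes 11.0% were higher and 3.14% lower. These shares stand beside the count of every gene list below that is set against shGFP. Their log2 fold changes ran from −0.89 to 1.03, with 10 above 0 and 10 below. The member that rose was Gsk3b, the kinase that phosphorylates beta-catenin, at 130 and 121 CPM in the libraries labelled shWtx, 125 and 111 in shTrim28 and 61.2 in shGFP (1.03, SE 0.30, edgeR adjusted p = 0.0442; DESeq2 adjusted p = 0.31). Ctnnb1, which encodes beta-catenin, stood at 175 and 223 CPM in the libraries labelled shWtx and 283 in shGFP and did not pass (−0.52, adjusted p = 0.18). Axin1 (0.15), Apc (−0.20) and Lrp6 (−0.22) did not pass either. Without shWtx 1 or shWtx 2, Gsk3b had adjusted p of 0.204 and 0.114.

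Of 24 Wnt target genes listed, 6 passed the row filter and 1 of them was called. Cd44, the hyaluronan receptor, stood at 198 and 218 CPM in the libraries labelled shWtx, 366 and 309 in shTrim28 and 101 in shGFP (1.04, edgeR adjusted p = 0.0234), and it did not pass without shWtx 1 or shWtx 2 (adjusted p of 0.11 and 0.112). Ccnd1 (−0.53), Ccnd2 (0.22), Id2 (0.39), Mycn (−0.20) and Myc (0.01) did not pass. Of 17 tested p53 targets and partners of Wtx, 1 rose, the death receptor Tnfrsf10b at 352 and 295 CPM in the libraries labelled shWtx and 109 in shGFP (1.59, adjusted p = 0.00239). The transcript of Tnfrsf10b holds 298 bases of sequence that recurs in more than 10 other genes. The part of such sequence in this rise was not tested. Without transcripts of at least 100 such bases, which leaves out Tnfrsf10b, 0 of 13 were higher and 2 lower. That stands beside 6.49% and 4.94% over all such genes. In the main fit the pro-apoptotic Bax (−0.80) and Sesn2, a stress-induced inhibitor of mTORC1 (1.33), did not pass. Of 4 tested targets of Wt1, including Igf1r and Igf2, edgeR called 0, also at an unadjusted p under 0.05, and DESeq2 called 0.

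Of 25 tested genes of the Keap1 and Nrf2 system 3 were higher and 3 lower, beside 11.0% higher and 3.14% lower over all genes. Beside Slc7a11, the cationic amino acid transporter Slc7a1 rose to 171 and 129 CPM in the libraries labelled shWtx, against 53.3 in shGFP (1.5, edgeR adjusted p = 0.0101), and heme oxygenase Hmox1 rose (0.90, adjusted p = 0.0402). The glutathione transferase Gsta4 (−0.93), transketolase Tkt (−0.87) and ferritin heavy chain Fth1 (−0.72) fell. With the length background subtracted the rises passed, and the falls had log2 fold changes of −0.79, −0.74 and −0.56 with adjusted p of 0.0755, 0.0795 and 0.103. Without shWtx 1 there were 1 higher and 0 lower, and without shWtx 2 there were 2 and 0.

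Of 26 tested genes of the Atf4 amino acid response, Slc7a11 and Aldh1l2 rose and none was lower, beside 11.0% higher and 3.14% lower over all genes. Aldh1l2, a mitochondrial folate enzyme, stood at 102 and 38.1 CPM in the libraries labelled shWtx and 12.7 in shGFP (2.53, adjusted p = 0.031). It did not pass without shWtx 1 (1.58, adjusted p = 0.311) and passed without shWtx 2 (2.97, adjusted p = 0.0331). The list's median was −0.21. Of 9 tested genes of double-stranded RNA sensing and interferon, Eif2ak2 was higher. The interferon-induced membrane proteins Ifitm2 (−0.92, edgeR adjusted p = 0.0187) and Ifitm3 (−1.07, adjusted p = 0.025) were lower. Neither passed without shWtx 1 or shWtx 2, with adjusted p of 0.0919 and 0.122 for Ifitm2 and 0.232 and 0.123 for Ifitm3, and DESeq2 gave 0.102 and 0.071. Irf9, a factor of interferon signalling, stood at 71 and 49 CPM in the libraries labelled shWtx and 25 in shGFP and did not pass (1.35, adjusted p = 0.0711).

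In the TGF-beta, Bmp and Nodal list 2 of 18 genes were higher and 2 lower, beside 11.0% and 3.14% over all genes. Tgfbr1, the type I receptor, rose to 112 and 70 CPM in the libraries labelled shWtx, against 15.8 in shGFP (2.52, edgeR adjusted p = 0.00413). Tdgf1 (Cripto), a Nodal co-receptor, fell to 311 and 336 CPM in the libraries labelled shWtx, against 694 in shGFP (−1.10), and Lefty1, an antagonist of Nodal, fell to 88.4 and 78.4 CPM, against 205 in shGFP (−1.29). Without shWtx 1 edgeR called 0 of the 18, and without shWtx 2 it called Tgfbr1.

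Among proteoglycans and modulators of growth factors, 1 of 18 tested genes was higher and 3 were lower, beside 11.0% and 3.14% over all genes. Gpc6 (glypican 6) stood at 844 and 737 CPM in the libraries labelled shWtx, 504 and 465 in shTrim28 and 322 in shGFP (1.30, edgeR adjusted p = 0.00263), opposite in direction to Gpc3. Igfbp4, which binds insulin-like growth factors, stood at 54.8 and 42.8 CPM in the libraries labelled shWtx, 151 and 152 in shTrim28 and 142 in shGFP (−1.53, adjusted p = 0.00473). Igfbp2 fell as well (−1.17, adjusted p = 0.00837), beside Gas1. Without shWtx 1 there were 0 higher and 1 lower, and without shWtx 2 there were 1 and 1, with Igfbp4 passing in both fits.

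Of 34 tested pluripotency genes 8 were lower in the libraries labelled shWtx and 26 did not pass, with a median of −0.59. Over all genes 3.14% were lower, with a median of −0.03. Of genes with a mean of at least 400 CPM, 26.1% were lower, with a median of −0.51. Spp1 (osteopontin) stood at 742 and 857 CPM in the libraries labelled shWtx, 1030 and 1604 in shTrim28 and 2348 in shGFP (−1.56, SE 0.26, edgeR adjusted p = 0.00183). Dppa5a, an RNA-binding protein of stem cells, stood at 1185 and 1332 CPM in the libraries labelled shWtx, 614 and 690 in shTrim28 and 2496 in shGFP (−0.99, adjusted p = 0.00713). Mkrn1 (−1.14), Utf1 (−0.94), Zfp42 or Rex1 (−0.81) and Klf2 (−1.05) fell, beside Tdgf1 and Lefty1.

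The core factors did not pass. Pou5f1 had a log2 fold change of −0.53 (edgeR adjusted p = 0.18), Sox2 of −0.64 (adjusted p = 0.146) and Nanog of −0.26 (adjusted p = 0.547). Without shWtx 1 edgeR called 0 of the 34 genes (median −0.60) and without shWtx 2 it called 1, and DESeq2 called 4. With the length background subtracted 5 passed (median −0.50).

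Of 36 tested genes of feeder fibroblasts and matrix, 3 were higher than in shGFP and 2 lower, and 25 had a log2 fold change above 0 (median 0.25 against −0.03 over all genes). At an unadjusted p under 0.05, 11 of the 36 were higher and 3 lower, beside 1071 and 650 of all 6079 genes. The summed level of the whole list was 6338 and 6848 CPM in the libraries labelled shWtx, 12569 and 13267 in shTrim28 and 5791 in shGFP. Acta2 (smooth muscle actin) had 1 control count and a ratio of 43.4 (95% counting interval 7.54 to 1736), and Tagln, which binds actin, rose (1.96, edgeR adjusted p = 0.00779). The collagens Col1a1 (0.09), Col1a2 (0.61) and Col3a1 (−1.17) did not pass, and Dcn, a matrix proteoglycan, fell (−1.13, adjusted p = 0.0302). Without shWtx 1 edgeR called 0 of the 36.

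Of 8 tested germ layer regulators edgeR called 0, with 2 higher at an unadjusted p under 0.05, and DESeq2 called 0. At that unadjusted threshold 1071 of all 6079 genes were higher. Of 19 imprinted genes 1 was higher, Inpp5f (2.19, edgeR adjusted p = 0.0436), and 2 were lower, Dcn and Dlk1. Inpp5f stood at 1.23 without shWtx 1 (adjusted p = 0.352) and 2.63 without shWtx 2 (adjusted p = 0.0298), and DESeq2 gave an adjusted p of 0.178. Dlk1, a Notch-like ligand, stood at 526 and 436 CPM in the libraries labelled shWtx, 1465 and 1292 in shTrim28 and 955 in shGFP (−0.98, adjusted p = 0.0103), and it had adjusted p of 0.0937 and 0.146 without shWtx 1 or shWtx 2. Of 8 genes of the 2-cell-like state, the deubiquitinase Dub1 was higher (1.52), and Zscan4c (−0.71) and Tcstv3 (−1.26) were lower. Without shWtx 1 or shWtx 2, Zscan4c had adjusted p of 0.19 and 0.222, Tcstv3 of 0.219 and 0.186 and Dub1 of 0.231 and 0.0475. DESeq2 called Dub1 alone of the 8, as did the fit with the length background subtracted. These genes belong to families of near-identical copies, so reads may have been split among them.

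Among glycolysis genes 11 of 20 fell and 1 rose, with a median of −0.82 against −0.03 over all genes. Over all genes 3.14% were lower and 11.0% higher. Of genes with a mean of at least 400 CPM, 26.1% were lower and 12.6% higher, with a median of −0.51. Slc2a1 (Glut1), the basal glucose transporter, stood at 315 and 413 CPM in the libraries labelled shWtx, 422 and 422 in shTrim28 and 1038 in shGFP (−1.53, SE 0.22, edgeR adjusted p = 0.00069). Ldha, which turns pyruvate into lactate, stood at 430 and 398 CPM in the libraries labelled shWtx, 467 and 425 in shTrim28 and 975 in shGFP (−1.23, SE 0.20, adjusted p = 0.00181). Eno1 (enolase) stood at 547 and 609 CPM in the libraries labelled shWtx and 1262 in shGFP (−1.13), and Pfkl, a phosphofructokinase, at 43.1 and 37.6 CPM and 122 in shGFP (−1.62).

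The others that fell were Aldoa, Pkm2, Pgk1, Slc2a3, Gapdh, Pgam1 and Tpi1, with log2 fold changes from −1.04 to −0.78. Pfkfb3, which makes the activator of phosphofructokinase, was the member that rose, at 71.5 and 48.2 CPM in the libraries labelled shWtx and 8.72 in shGFP (2.91, edgeR adjusted p = 0.00947). Against shTrim28, 1 of the 20 genes was higher in the libraries labelled shWtx and 0 were lower (3 at an unadjusted p under 0.05), so a response to both sets of hairpins and a feature of the 1 control library cannot be told apart. With the length background subtracted 9 fell (median −0.66), DESeq2 called 7, and without shWtx 1 or shWtx 2 there were 2 and 3, with Slc2a1 and Ldha passing in both fits.

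**Figure D3:**
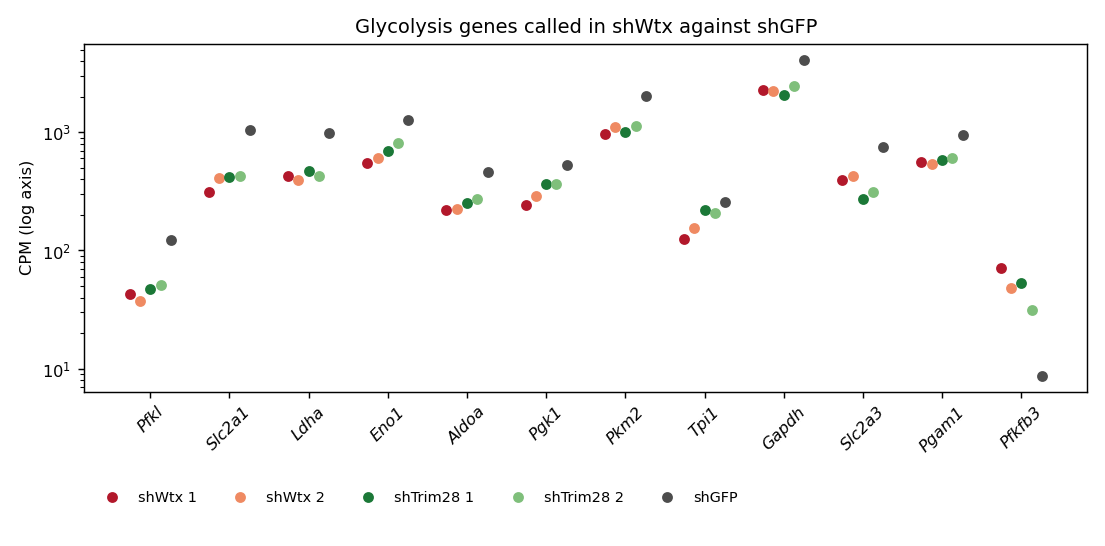
Levels of the 12 called glycolysis genes in each library, in CPM on a log axis, with 1 point per library. For the 11 genes at left the 4 libraries with hairpins against Wtx and Trim28 stand below shGFP, and for Pfkfb3 they stand above it.

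Ribosomal protein genes fell in 46 of 83 cases and rose in 0 (0 at an unadjusted p under 0.05), with a median of −0.73. Over all genes 3.14% were lower, and of those with a mean of at least 400 CPM 26.1% were lower. Their summed level was 96354 and 104235 CPM in the libraries labelled shWtx, 117859 and 139839 in shTrim28 and 166615 in shGFP. Rpl22l1 (−1.11), Rps9 (−0.93), Rpl36 (−1.06) and Rps26 (−0.91) had the lowest p. Over all genes, transcripts under 1000 bases had a median of −0.58, and genes with a mean above 400 CPM a median of −0.51. DESeq2 called 40, subtraction of the length background left 23 (median −0.57), and without shWtx 1 or shWtx 2 there were 0 and 1.

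Over all genes 3.14% were lower, and of 74 tested genes of oxidative phosphorylation 16 fell, with a median of −0.63. Of genes with a mean of at least 400 CPM, 26.1% were lower, with a median of −0.51. Of transcripts under 1000 bases, 17.4% were lower, with a median of −0.58. The 16 included the complex I subunit Ndufa2 (−1.14, edgeR adjusted p = 0.00937) and the ATP synthase subunits Atp5o (−1.11) and Atp5g3 (−0.91). DESeq2 called 2 of them, 6 passed with the length background subtracted, and edgeR called 0 without either library labelled shWtx.

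In other metabolism and growth lists few genes passed. Of 23 genes of cholesterol and lipid synthesis 2 fell, the desaturase Scd2 (−1.29, edgeR adjusted p = 0.00283) and the isomerase Idi1 (−1.21). Of 37 cell cycle genes thymidylate synthase Tyms rose (1.42, adjusted p = 0.00652) and Ccnb2 fell. Without shWtx 1, Scd2 had an adjusted p of 0.0804, and without shWtx 2 Tyms had 0.0569; Idi1 and Ccnb2 passed in neither fit. Of 28 heat shock and folding genes the chaperone Hspa8 rose, at 12249 and 12377 CPM in the libraries labelled shWtx, 13025 and 8425 in shTrim28 and 5937 in shGFP (1.05, adjusted p = 0.0444), with adjusted p of 0.369 and 0.343 without shWtx 1 or shWtx 2. In the Trim28 silencing machinery, 1 of 27 was called, Trim28 itself (−0.77, edgeR adjusted p = 0.0411). Trim28 did not pass by DESeq2 (adjusted p = 0.201), nor by edgeR with the length background subtracted (adjusted p = 0.0959). Without shWtx 1 or shWtx 2 its log2 fold change was −0.82 and −0.74.

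Numbered Zfp zinc finger genes, many of which hold a KRAB domain that recruits Trim28, were higher in 16 of 69 tested cases and lower in 1, with a median of 0.62, beside 11.0% and 3.14% over all genes. Zfp353 stood at 2238 and 1812 CPM in the libraries labelled shWtx, 848 and 567 in shTrim28 and 67.2 in shGFP (4.90, edgeR adjusted p = 1e-05), and its transcript holds no sequence repeated in more than 10 other genes. Zfp488 (4.88), Zfp473 (2.83) and Zfp277 (1.85) rose too. Without transcripts of at least 100 repeated bases 9 of 49 were higher and 1 lower, beside 6.49% and 4.94% over all such genes, and without shWtx 1 or shWtx 2 there were 5 and 8 higher. Zinc finger genes are a large family with similar copies, so counts of single members are uncertain.

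**Figure D4:**
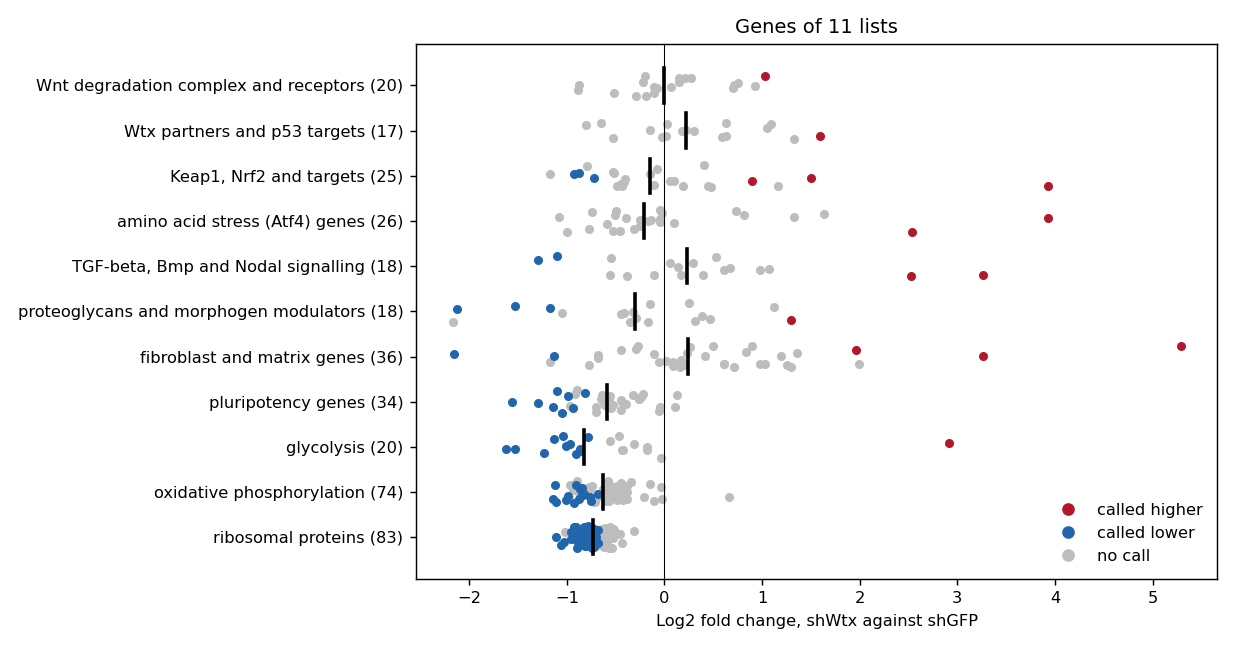
Log2 fold changes of the tested genes of 11 lists in the libraries labelled shWtx against shGFP, 1 point per gene, with called genes in red (higher) or blue (lower), others in grey and the median as a black bar. Glycolysis, oxidative phosphorylation, ribosomal protein and pluripotency genes lie left of 0, with medians from −0.82 to −0.59.

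Repeat reads were higher in the libraries labelled shWtx relative to gene reads. Repeats are stretches that recur across the genome, and most derive from transposons: LINE and SINE elements copy themselves through RNA, and LTR elements descend from retroviruses. The repeat table held 1115903 and 495824 estimated counts in the libraries labelled shWtx and 424084 in shGFP. On the scale of gene reads 567 of 682 elements were higher (83.1%), with a median of 2.38. By edgeR 0 were lower (0%; 1 at an unadjusted p under 0.05), and DESeq2 called 562 higher and 0 lower. Without shWtx 1 there were 150 higher and without shWtx 2 there were 363.

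The count depended on the scale. Scaled to the repeats' own median of ratios, 47 were higher (6.89%) and 100 lower (14.7%). Scaled to the total of repeats outside ribosomal RNA, 305 were higher (44.7%) and 54 lower (7.92%). Statements below give both the gene scale and the repeats' own median for most groups and elements.

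LINE-1 elements, the active family of autonomous mouse transposons, were higher in 95 of 95 cases on the gene scale, and the median was 2.47. The young mouse subfamilies L1Md, L1_Mus and L1_Mm stood above the rest, with 11 of 11 higher and a median of 3.36. On the repeats' own scale 7 of these 11 were higher (median 0.99), against 14 of all 95 (median 0.10). Of all 682 repeats, 83.1% were higher on the gene scale and 6.89% on the own scale. Without shWtx 1 or shWtx 2, 18 and 54 of the 95 were higher on the gene scale, and 8 and 11 of the young ones. L1Md_F stood at 7686 and 5952 CPM in the libraries labelled shWtx, 2995 and 2040 in shTrim28 and 415 in shGFP (4.04 on the gene scale, edgeR adjusted p = 3.23e-06; 1.66 on the own scale, adjusted p = 0.00576). The older family L2 was higher by 2.95 on the gene scale and had 0.58 on the own scale (adjusted p = 0.0707).

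The shares of all repeats called higher were 83.1% on the gene scale and 6.89% on the own scale. Among LTR elements, IAP elements, retroviruses that are still mobile in mice, were higher in 14 of 15 cases on the gene scale (median 3.35) and in 4 on the own scale (median 0.97). Their internal part IAPEz-int stood at 7051 and 4633 CPM in the libraries labelled shWtx, 2284 and 2609 in shTrim28 and 257 in shGFP (4.51, edgeR adjusted p = 3.68e-07; own scale 2.12, adjusted p = 0.0283). RLTR10 had the largest rise of all repeats, at 880 and 648 CPM in the libraries labelled shWtx, 262 and 201 in shTrim28 and 26.7 in shGFP (4.88; own scale 2.50, adjusted p = 0.00592). The other large rises were RLTR13A3 (4.69), SYNREP_MM (4.45), RLTR1C (4.33) and IAPLTR3-int (4.29), and all 4 were also higher on the own scale, by 1.9 to 2.34. The 15 IAP elements had 8 and 12 higher without shWtx 1 or shWtx 2.

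Other LTR groups kept nearer to the repeats as a whole. Of all repeats, 83.1% were higher on the gene scale, and 6.89% were higher and 14.7% lower on the own scale. Of 137 ERVK elements 128 were higher on the gene scale (median 2.58). On the own scale 14 of them were higher and 11 lower (median 0.20). Of 77 MaLR elements 74 were higher on the gene scale (median 2.55). On the own scale 6 of these were higher and 2 lower (median 0.19). Leaving out shWtx 1 or shWtx 2 left 34 and 84 ERVK elements and 18 and 49 MaLR elements higher on the gene scale. MERVL and MT2 elements, which mark the 2-cell-like state, had 3 of 7 higher and a median of 1.24, and on the own scale 4 were lower (median −1.13). MT2A was called at 2.24 on the gene scale and stood at −0.14 on the own scale. Of the 7, 0 passed on the gene scale without shWtx 1 or shWtx 2. DNA transposons, which are not mobile in mice, were higher in 68 of 71 cases with a median of 2.67 on the gene scale and 0.29 on the own scale, and 28 and 52 were higher without shWtx 1 or shWtx 2.

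Short repeats differed by family. Their counts stand beside 83.1% higher on the gene scale, and 6.89% higher and 14.7% lower on the own scale, over all repeats. On the gene scale, SINE MIR elements were higher in 5 of 5 cases with a median of 2.46, ID elements in 4 of 4 (1.76) and B4 elements in 3 of 4 (1.68). On the own scale 0 elements of these families were higher, with medians of 0.08 for MIR, −0.61 for ID and −0.69 for B4. There 1 ID element and 2 B4 elements were lower. SINE B1 elements were higher in 11 of 14 cases (median 1.72) and SINE B2 elements in 2 of 5 (median 0.20), and on the own scale 8 and 5 of them were lower, which turns the direction. Without shWtx 1 or shWtx 2, 0 B1 or B2 elements passed on the gene scale. Simple repeats were higher in 69 of 116 cases (median 1.61; own scale 3 higher and 28 lower), and in 17 and 37 without shWtx 1 or shWtx 2. Of 3 ribosomal RNA rows edgeR called 0 on the gene scale (0 at an unadjusted p under 0.05), with a median of 0.10, and of 15 small structural RNAs U14 was higher (1.45; −0.90 on the own scale), with adjusted p of 0.205 and 0.179 without shWtx 1 or shWtx 2.

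Among satellite repeats of the centromere region, the major satellite GSAT_MM had the lowest p of all repeats. It stood at 45809 and 61892 CPM in the libraries labelled shWtx, 18210 and 13620 in shTrim28 and 3149 in shGFP (4.10, SE 0.60, edgeR adjusted p = 6.56e-09; own scale 1.77, adjusted p = 0.0326). SYNREP_MM, of the same class, stood at 6586 and 6668 CPM in the libraries labelled shWtx and 303 in shGFP (4.45; own scale 2.10, adjusted p = 0.00827). The other two of the 4 tested satellites did not pass on the gene scale.

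**Figure D5:**
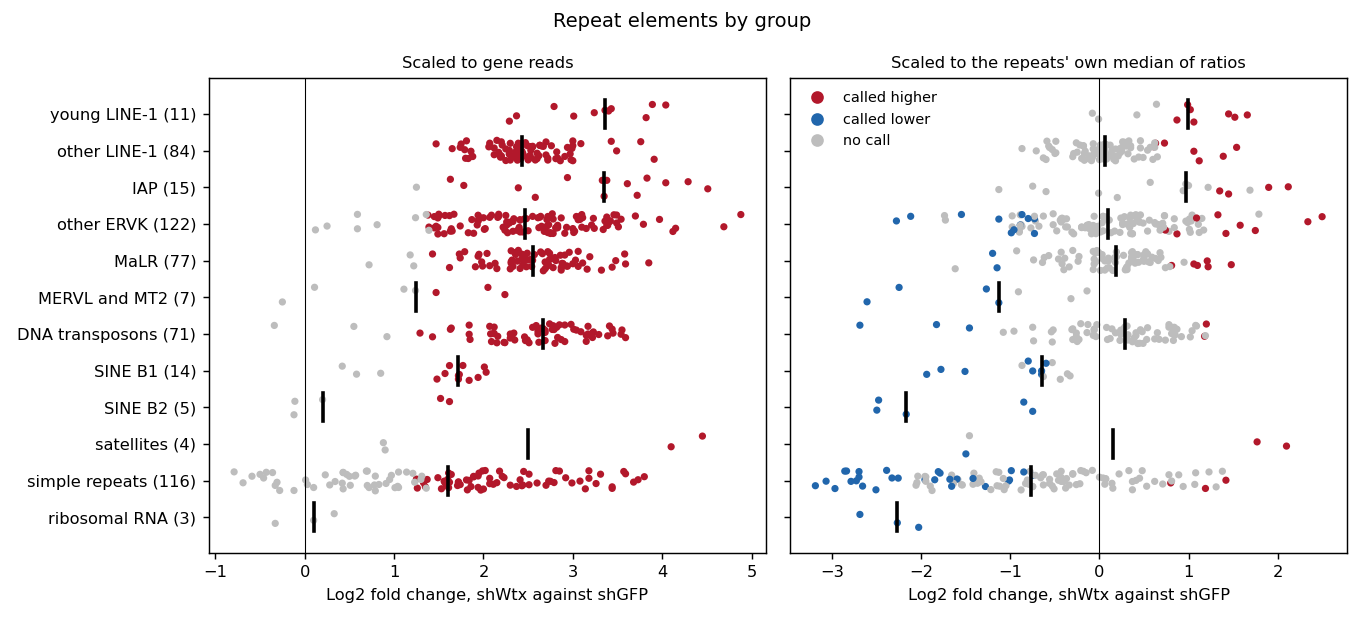
Log2 fold changes of repeat elements in the libraries labelled shWtx against shGFP by group, 1 point per element, scaled to gene reads (left) and to the repeats' own median of ratios (right), with called elements in red or blue and the group median as a black bar. Young LINE-1 and IAP elements lead on both scales, with medians of 3.36 and 3.35 at left, and SINE B2 moves from 0.20 at left to −2.17 at right.

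A direct comparison with shTrim28 asked where the libraries labelled shWtx differed from other hairpin libraries. It uses the same libraries labelled shWtx as the comparison with shGFP. Of 6079 rows 785 were higher in the libraries labelled shWtx (12.9%) and 251 lower (4.13%), with a median of 0.01. Pluripotency genes were higher in 14 of 34 cases and lower in 1 (median 0.70). Pou5f1, at 554 and 514 CPM in the libraries labelled shWtx and 280 and 186 in shTrim28, was higher by 1.27 (edgeR adjusted p = 0.00303), and Nanog by 0.88 (adjusted p = 0.0225).

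Fibroblast and matrix genes were lower than in shTrim28 in 21 of 36 cases and higher in 0 (0 at an unadjusted p under 0.05), with a median of −1.09. Dcn stood at 59.8 and 55.2 CPM in the libraries labelled shWtx and 179 and 244 in shTrim28 (−1.90, edgeR adjusted p = 0.00114). Trim28 itself, the target of the shTrim28 hairpins, stood at 424 and 401 CPM in the libraries labelled shWtx and 59.7 and 42.4 in shTrim28 (3.13, adjusted p = 0.000105). Repeats were higher than in shTrim28 in 459 of 682 cases (67.3%) and lower in 3 (0.440%) on the gene scale, and on their own scale 0 were higher (9 at an unadjusted p under 0.05) and 5 lower. Without shWtx 1 edgeR called 0 genes in either direction (711 higher and 356 lower at an unadjusted p under 0.05), and without shWtx 2 it called 409 higher and 54 lower. In repeats it called 0 in both fits (39 and 143 higher at an unadjusted p under 0.05).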

How the data were processed

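The authors deposited tables of estimated counts per gene and per repeat element for each library, aligned to build mm9 per the submitters' processing notes and not scaled between libraries. The sources used here name no aligner, counting program or strand setting, and overlapping, antisense and near-identical genes may share reads. Estimated counts were rounded to whole numbers. Library sizes were median-of-ratios size factors of the gene table, also for repeats. The main test was edgeR 4.0.16 (R 4.3.3), a quasi-likelihood fit on 5 libraries in 3 groups without covariates, with 2 residual degrees of freedom, so shGFP was assumed to vary like the other groups. The common biological coefficients of variation were 0.155 (genes) and 0.296 (repeats). Tests were two-sided, with Benjamini-Hochberg adjustment over all tested rows and a threshold of 0.05. Standard errors are the log2 fold change divided by the square root of F and are approximate. Every adjusted p comes from edgeR unless DESeq2 (1.42.0, Wald test) is named. Tables were made with Python 3.11.15, pandas 2.3.3 and SciPy 1.17.1. Poisson and binomial counting intervals are exact.

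Transcript lengths and repeated sequence came from GENCODE M21, matched by symbol for 19154 of 19486 gene symbols; of 9156 rows with only a UCSC identifier, 392 passed the filter, and they were tested and not named. The length background was the count per base of 671 chemoreceptor genes, subtracted before rounding. The script was tested on simulated data. Named genes were the markers of the comparison with Trim28, Pou5f1, Nanog, Sox2 and Ctnnb1, the 10 largest changes and 5 lowest p per direction with both libraries on 1 side of shGFP (6 and 4 for repeats), and up to 4 of lowest p per list; further list members are named as examples after their values were seen. Members and lists were chosen with earlier results of these data known. Some results that the rule would name are not reported here.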

Additional observations from a re-analysis of the deposited data

How the results depend on the processing

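No paired analysis was possible because the replicate numbers were given in accession order, the hairpins of the groups differ and shGFP is 1 library. Against shGFP, genes higher and lower numbered 671 and 191 as reported. With filterByExpr 1334 were higher, with no filter 1776, and with DESeq2 446 were higher and 70 lower. With the 2 groups alone 343 were lower. With the length background subtracted there were 439 and 85, without transcripts with repeated sequence 301 higher, and with both 289 and 81. The sequence filter, and the limit of the background to chemoreceptor genes with little repeated sequence, were chosen after seeing the data. Leaving out 1 library gave 310 to 807 genes higher and 7 to 360 lower. Against shTrim28, genes higher and lower were 785 and 251, 1351 higher with filterByExpr, 2117 with no filter, 349 and 74 with DESeq2, 361 higher without repeated sequence and 399 with both; leaving out 1 library gave 0 to 1026 and 0 to 372. Repeats higher and lower than in shGFP were 567 and 0, 47 and 100 on their own size factors, 305 and 54 on their total outside ribosomal RNA. TMM, filterByExpr and no filter left 1 lower and the 2 groups alone 2; leaving out 1 library gave 150 to 589 and 0 to 2. Repeats against shTrim28, a count added after seeing the data, were 459 and 3, 0 and 5 on their own size factors, 0 and 18 on their total outside ribosomal RNA, and 0 to 604 and 0 to 7 with 1 library left out. Among named rows with a call in either of the fits compared, directions turned only where repeats were rescaled. On the repeats' own size factors these were MT2A −0.14, B1_Mur1 −0.36, B3A −0.75, B4 −0.47 and ID −0.35. There LSU-rRNA_Hsa stood at −2.03, tRNA-Ala-GCY_ at −0.78 and U14 at −0.90. On the total outside ribosomal RNA, LSU-rRNA_Hsa stood at −1.23 and U14 at −0.10. Id2, a gene without a call, went from 0.39 to −0.21 without shWtx 1. The cause was not tested. Depth limits low genes, since shGFP held 586408 counts over 28642 gene rows.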

Other observations

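Across 6 settings (the reported fit, TMM scaling, DESeq2, the length background subtracted without transcripts of at least 100 repeated bases, and each library labelled shWtx left out), 91 genes were higher than shGFP in all 6 and 3 were lower in all 6. Slc2a1 and Ldha were among the 3. Genes whose transcripts hold at least 100 repeated bases could not be among the 91 or the 3, because a setting left them out. Slc7a11 and Eif2ak2, with 276 and 158 such bases, were thus not assessed here. The 91 had log2 fold changes from 1.70 to 8.41 with a median of 3.66, and 50 of them had 10 or fewer counts in shGFP.

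Named after their values were seen, they held Dkk2, a secreted modulator of Wnt signalling, at 63 and 58.4 CPM in the libraries labelled shWtx, 20.7 and 18.6 in shTrim28 and 7.85 in shGFP (log2 fold change 2.90, SE 0.52, edgeR adjusted p = 0.00302). Traf5, an adaptor of TNF receptors, stood at 1142 and 951 CPM in the libraries labelled shWtx, 482 and 354 in shTrim28 and 29.0 in shGFP (5.16). Pfkfb2, a relative of Pfkfb3, stood at 201 and 215 CPM in the libraries labelled shWtx, 43.9 and 39.8 in shTrim28 and 6 in shGFP (4.97). Slc38a1, a glutamine transporter, stood at 599 and 441 CPM in the libraries labelled shWtx, 228 and 211 in shTrim28 and 64 in shGFP (3.01). The neurofibromin gene Nf1 (2.42) and the receptor kinase Ntrk2 (3.02) were among them.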
